A study of Mus musculus with 2 samples.

Results

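Crem and 9 genes that act with it or beside it in the transcription of developing sperm were followed through spermatogenesis in single cells of mouse testis. The 10 genes were taken by name from the list Crem, Fhl5, Tbpl1, Taf7l, Taf7, Gtf2a1l, Kif17, Sox30, Rfx2 and Tcfl5, out of 32285 genes in the tables, and all 10 were found. The cKO library came from testes labelled Dot1L cKO, with 1 floxed and 1 deleted allele of Dot1L (Dot1L fl/delta) and the Ddx4-Cre transgene, in which Cre is driven by a germ cell gene. The control library came from testes with 1 floxed and 1 wild-type allele (Dot1L fl/+) and no Cre, so it carries a floxed allele too. Age and the number of animals are not given in the labels. With 1 library for each genotype no test between genotypes could be made, and each interval given covers counting error only.

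CREM is a leucine zipper factor of the CREB family that binds cAMP response elements (CRE, letters TGACGTCA), and round spermatids of mice that lack it do not go on to elongate. In the testis its activating form is bound by FHL5, also called ACT, a LIM domain coactivator that works without phosphorylation of CREM, and KIF17, a kinesin motor, was reported to carry FHL5 out of the spermatid nucleus. TBPL1 is a relative of the TATA-binding protein and GTF2A1L is the germ cell form of the large TFIIA subunit, while TAF7L is the X-linked, germ cell relative of the TFIID subunit TAF7. SOX30 (an HMG box factor), RFX2 (a winged helix factor that binds X-box sites) and TCFL5 (a helix-loop-helix factor of spermatocytes) act in meiotic and haploid germ cells. DOT1L, the enzyme deleted in the cKO, methylates a lysine in the globular domain of histone H3.

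The cKO library held 20601 barcodes and 156518838 UMIs and the control library 17408 barcodes and 155487418 UMIs, and 102 barcode sequences occurred in both. After filters, 7192 cKO and 6956 control cells with at least 3000 UMIs were kept, of which 6559 and 6624 were placed in 7 germ cell stages by marker genes: spermatogonia, leptotene to zygotene, early to mid pachytene, late pachytene to secondary spermatocytes, and early round, late round, and elongating and condensing spermatids. Of 92 germ cell markers 65 were used, and 64 of them in the cKO and 62 in the control library were highest in their own stage. The 65 were those highest in their own stage in a first pass over the same cells. That agreement is therefore no independent check of the stages. The smallest stage was the spermatogonia, with 345 cKO and 183 control cells, and the largest the elongating and condensing spermatids, with 1774 and 2153. The boundary of the late round stage is soft, since 31.2% of its cells scored within 0.25 SD of another stage. In an unsupervised graph the libraries stood apart among the spermatids: each of the 11 spermatid clusters with over 400 cells was almost wholly of 1 library, with at most 7 cells of the other. A smaller early round cluster held 237 cKO and 144 control cells. A late pachytene to secondary cluster held 402 cKO and 5 control cells, while the others of that class were mixed (337 and 552, 285 and 262). Clusters of earlier stages were mixed too, as in the spermatogonia (300 and 152). Stages were set by marker scores and not by these clusters, and a difference between libraries as such and one of genotype cannot be told apart. Dot1l itself, read by its 3′ end, had 5.41 CPM (a gene's UMIs scaled to 1000000 UMIs of its stage and library) in cKO early round spermatids, against 44.8 CPM in control ones, and 61.1 CPM in cKO early to mid pachytene cells, against 82.1 CPM in control ones. In late pachytene to secondary cells it had 26.7 CPM in the cKO and 118 CPM in the control library. The sources used here do not say whether the counted end lies in the deleted segment. Dot1l was also lower in the somatic cells, with 19.3 CPM in the cKO and 55.3 CPM in the control library. Free RNA in the droplets was estimated from spermatid transcripts in macrophage-, Leydig- and mesenchymal-like cells at 1493 UMIs per cell in the cKO library and 1137 in the control library, and it bears on every low value below.

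Promoter windows of 250 bases before the RefSeq start (GRCm38.p6) were on hand for 8 of the 10 members, in 9 entries. The 4 with a match to a CRE, a CRE half-site (TGACG), an E-box (CACGTG) or an X-box half-site (GTTGCC) on either strand are shown 5′ to 3′, with the matches in capitals, since these are the letters read by CREM, by helix-loop-helix factors and by RFX factors.
Kif17 (chr4:138262001-138262250, plus strand): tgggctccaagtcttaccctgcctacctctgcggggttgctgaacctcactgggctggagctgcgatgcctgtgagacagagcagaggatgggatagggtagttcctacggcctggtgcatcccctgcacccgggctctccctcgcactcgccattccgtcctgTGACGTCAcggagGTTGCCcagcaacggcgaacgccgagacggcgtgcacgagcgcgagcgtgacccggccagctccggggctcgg
Gtf2a1l (chr17:88668410-88668659, plus strand): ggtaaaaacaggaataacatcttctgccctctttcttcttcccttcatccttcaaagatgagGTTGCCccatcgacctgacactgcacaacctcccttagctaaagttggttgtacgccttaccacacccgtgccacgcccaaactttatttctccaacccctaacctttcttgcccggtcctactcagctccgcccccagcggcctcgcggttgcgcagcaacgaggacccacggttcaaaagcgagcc
Rfx2 (chr17:56831009-56831258, minus strand): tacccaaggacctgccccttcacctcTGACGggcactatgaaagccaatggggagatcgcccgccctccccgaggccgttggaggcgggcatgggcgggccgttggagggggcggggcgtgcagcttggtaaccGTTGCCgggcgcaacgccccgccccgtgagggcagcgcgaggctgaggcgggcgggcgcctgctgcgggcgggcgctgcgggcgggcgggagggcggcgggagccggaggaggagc
Taf7l (chrX:134476491-134476740, minus strand): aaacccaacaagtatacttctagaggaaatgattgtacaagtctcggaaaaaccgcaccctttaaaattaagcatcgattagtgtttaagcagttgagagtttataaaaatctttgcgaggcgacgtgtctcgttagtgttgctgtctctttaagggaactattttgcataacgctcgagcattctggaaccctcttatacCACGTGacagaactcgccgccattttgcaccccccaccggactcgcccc
The full CRE stood in the Kif17 window alone of these 9, with its first base 86 bases before the start, and an X-box half-site followed at 73 bases; the CRE holds the half-site on both strands. Of all 32851 windows in the reference table, 1.55% hold a CRE and 10.4% an X-box half-site. The Gtf2a1l window had an X-box half-site at 188 bases and the Rfx2 window one at 116 bases together with a CRE half-site at 224 bases, a letter run found in 17.8% of all windows. Taf7l, on the X chromosome, had an E-box at 49 bases, which 6.02% of windows hold. The windows of Fhl5, Tbpl1, Sox30 and Tcfl5 held none of these letters. The shorter core letters AACNG (MYB) were in every one of the 9 windows, as in 74.2% of all windows, and ACAAT (SOX) was in those of Sox30, Taf7l and 1 of the 2 entries of Fhl5, against 27.7% of all. A match is a description of letters and not a bound site. In the GENCODE vM21 annotation of the same build Fhl5 spans chr4:25199908-25242876 (minus strand), Tbpl1 chr10:22703879-22731938 (minus), Sox30 chr11:45980310-46017994 (plus) and Tcfl5 chr2:180621956-180642708 (minus), all protein-coding. The Kif17 window lies within that annotation's span of the gene, which begins further upstream at base 138250435. Kif17 overlaps Sh2d5 on the same strand, so reads in the overlap could be shared.

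The members came on in a sequence that ran from spermatogonia to late round spermatids, with nearly the same order in the cKO and the control library. Onset was taken as the first stage with 50% of the gene's own highest stage level. By that measure 8 members in the cKO and 9 in the control library were on before the round spermatid stages. Fhl5 was the last in both libraries, and Kif17 was the member whose onset lay before the round stages in the control library and in them in the cKO. A finer scale came from the mean stage score of each cell, cut into 20 position steps: step 2 was mainly leptotene to zygotene, steps 3 and 4 early to mid pachytene, steps 5 to 7 late pachytene to secondary, steps 8 to 11 early round, steps 12 to 14 late round, and steps 15 to 20 elongating and condensing.

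**Figure D1:**
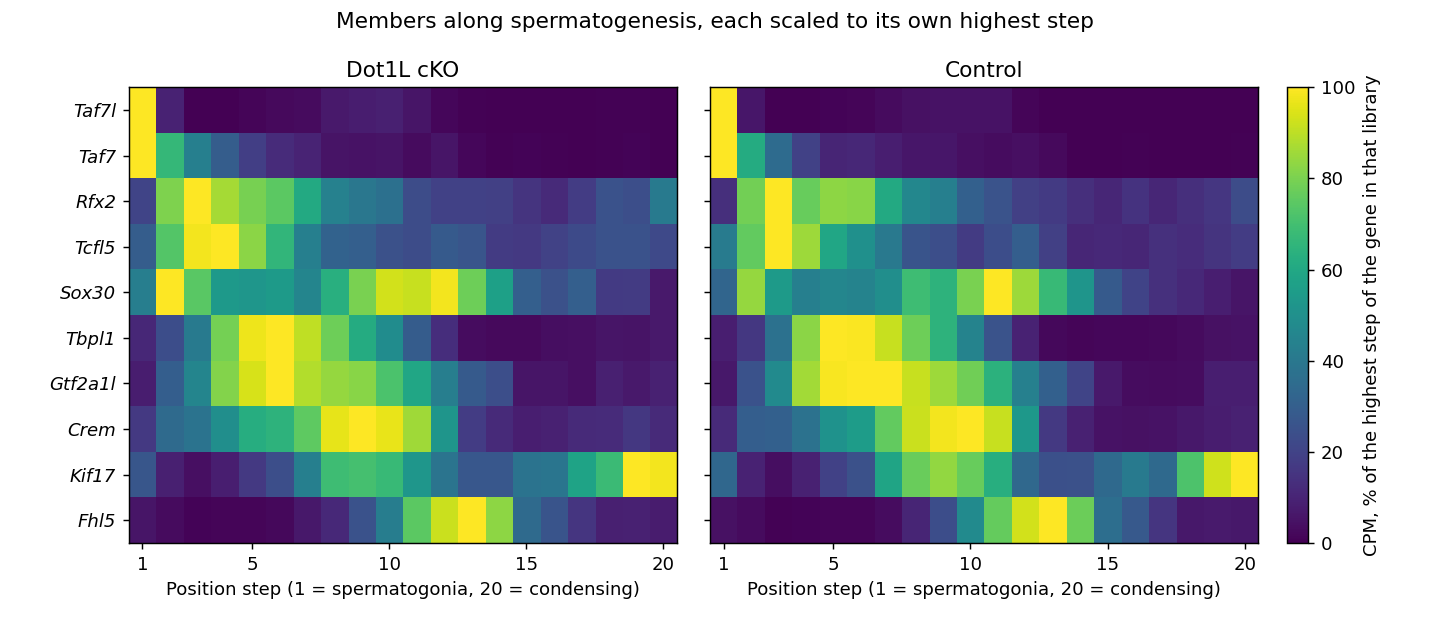
Level of each member in 20 position steps through spermatogenesis, as % of the gene's own highest step in that library, Dot1L cKO on the left and control on the right. Steps run from spermatogonia (1) to condensing spermatids (20), and rows are ordered by the step at which the control library first reached 50%. The bright cells move from the upper left (Taf7l and Taf7, step 1) to the lower right (Fhl5, highest at step 13 in both libraries).

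The TFIID pair Taf7l and Taf7 was highest in spermatogonia in both libraries. Taf7l had 374 CPM in cKO and 364 CPM in control spermatogonia, and 339 and 266 CPM in leptotene to zygotene cells. In early to mid pachytene cells it was at 1.96 CPM in the cKO and 1.03 CPM in the control library, under 1% of its highest level. It returned at a low level in early round spermatids, with 31.5 CPM in the cKO and 21.5 CPM in the control library, which is 8.42% and 5.92% of the spermatogonial level. Taf7 had 213 CPM in cKO and 235 CPM in control spermatogonia, and its CPM declined stage by stage without a second maximum. At early to mid pachytene it still had 74.6 and 68.8 CPM, and in early round spermatids 8.40 and 10.0 CPM. At early to mid pachytene the CPM of the autosomal gene was thus 35.0% of its highest in the cKO and 29.2% in the control library. That of its X-linked relative was under 1%. CPM is a share of UMIs and not an amount per cell. Median depth was 6740 UMIs in cKO spermatogonia and 31794 in cKO early to mid pachytene cells (control 8338 and 39181). Taf7 had 567 UMIs in 345 cKO spermatogonia and 2245 in 901 cKO early to mid pachytene cells. In the control library it had 405 in 183 and 1794 in 661 cells.

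Among the DNA-binding factors of meiosis, Sox30 had 2 maxima. Its first was in leptotene to zygotene cells, at 72.5 CPM in the cKO and 77.8 CPM in the control library, followed by 39.3 and 40.4 CPM in late pachytene to secondary cells. The second lay in the round spermatids, with 62.8 and 71.8 CPM in the early and 67.0 and 67.9 CPM in the late stage. Rfx2 was highest at early to mid pachytene, with 104 CPM in the cKO and 103 CPM in the control library, and was still at 79.9 and 86.6 CPM in late pachytene to secondary cells. Tcfl5 was highest in the same stage, at 133 and 128 CPM, and had 37.8 and 31.5 CPM in early round spermatids. In leptotene to zygotene cells Rfx2 stood at 45.6% of its highest stage in the cKO and 65.0% in the control library, and Tcfl5 at 49.0% and 59.8%, so by the 50% rule both came on a stage later in the cKO. On the finer scale of 20 steps, which holds about equal numbers of control cells in each, both genes passed 50% at step 2 in both libraries. Only 56.7% of the cells of step 2 were leptotene to zygotene. The step held 504 cKO and 444 control UMIs of Rfx2, against 168 and 179 in that whole stage. For Tcfl5 these were 566 and 510 against 230 and 205. Step 2 therefore does not show whether onset within that stage was the same in both libraries.

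The general factors of germ cells came next. Tbpl1 reached 50% of its maximum at early to mid pachytene, with 694 CPM in the cKO and 736 CPM in the control library, and was highest in late pachytene to secondary cells, at 1262 CPM (95% interval 1248 to 1276) and 1463 CPM (1449 to 1478). Gtf2a1l, whose product is the TFIIA partner, had the same onset and the same highest stage, with 162 CPM in the cKO and 210 CPM in the control library at early to mid pachytene and 270 CPM (263 to 276) and 364 CPM (357 to 371) in late pachytene to secondary cells. Over 20 steps both crossed 50% at step 4 in both libraries. Their decline differed: in late round spermatids Tbpl1 stood at 7.44% of its highest stage in the cKO and 4.51% in the control library, and Gtf2a1l at 39.1% and 35.0%.

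Crem built up over a longer stretch than either. It had 161 CPM in cKO and 179 CPM in control leptotene to zygotene cells, 260 and 219 CPM at early to mid pachytene, 407 and 378 CPM in late pachytene to secondary cells, and 588 CPM (578 to 598) and 637 CPM (628 to 646) in early round spermatids, its highest stage. In late round spermatids it was down to 191 and 186 CPM, or 32.5% and 29.2% of the highest stage. Over 20 steps it was at 50% or more from step 5 to step 12 in both libraries. The counts pool all Crem forms, because 3′ UMIs do not tell the activating from the repressing transcripts: the annotation lists 39 transcripts with 11 separate groups of 3′ ends.

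Fhl5, the coactivator, followed its partner. In late pachytene to secondary cells, where Crem was above 50% of its maximum, Fhl5 was at 3.12% of its own in the cKO and 1.74% in the control library. It had 412 CPM in cKO and 464 CPM in control early round spermatids and 1122 CPM (1104 to 1141) and 1092 CPM (1075 to 1108) in late round spermatids. Over 20 steps Fhl5 crossed 50% at step 11 in both libraries, when Crem was past its own maximum at step 9 in the cKO and 10 in the control library. In single cells the pair overlapped: with every cell thinned to 3000 UMIs, 47.3% of cKO early round spermatids (44.5 to 50.2, exact 95% interval) had UMIs of both genes, and 50.8% of control ones (48.1 to 53.4). Without thinning these shares were 86.7% and 90.3%, at median depths of 18590 and 19879 UMIs. For background, the thinned share of somatic cells with both was 5.82% of 189 cKO and 12.8% of 47 control cells, at median depths of 6723 and 6906 UMIs. For late round spermatids the shares with both were 33.1% and 32.5%, while 90.4% and 89.9% had a UMI of Fhl5.

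Kif17, the kinesin, had the least simple course. It had 46.7 CPM (44.0 to 49.6) in cKO and 42.6 CPM (40.3 to 44.9) in control early round spermatids, its highest stage, with 23.0 and 16.4 CPM in late round and 38.1 and 28.5 CPM in elongating and condensing spermatids. Over 20 steps it had a first maximum at step 9, with 51.7 CPM in the cKO and 48.1 CPM in the control library, and a second, higher one at the end, with 73.2 CPM at step 19 in the cKO and 57.5 CPM at step 20 in the control library. Its level in spermatogonia, 22.6 CPM in the cKO and 26.1 CPM in the control library, rests on 60 and 45 UMIs and is 48.3% and 61.4% of the highest stage, which is all that puts its onset in spermatogonia in the control library. For a frame, the acrosomal gene Acrv1 passed 50% at step 8 and Tnp1, Tnp2 and Prm1 at step 13 in both libraries, so every member had passed 50% before the transition protein and protamine RNAs did.

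**Figure D2:**
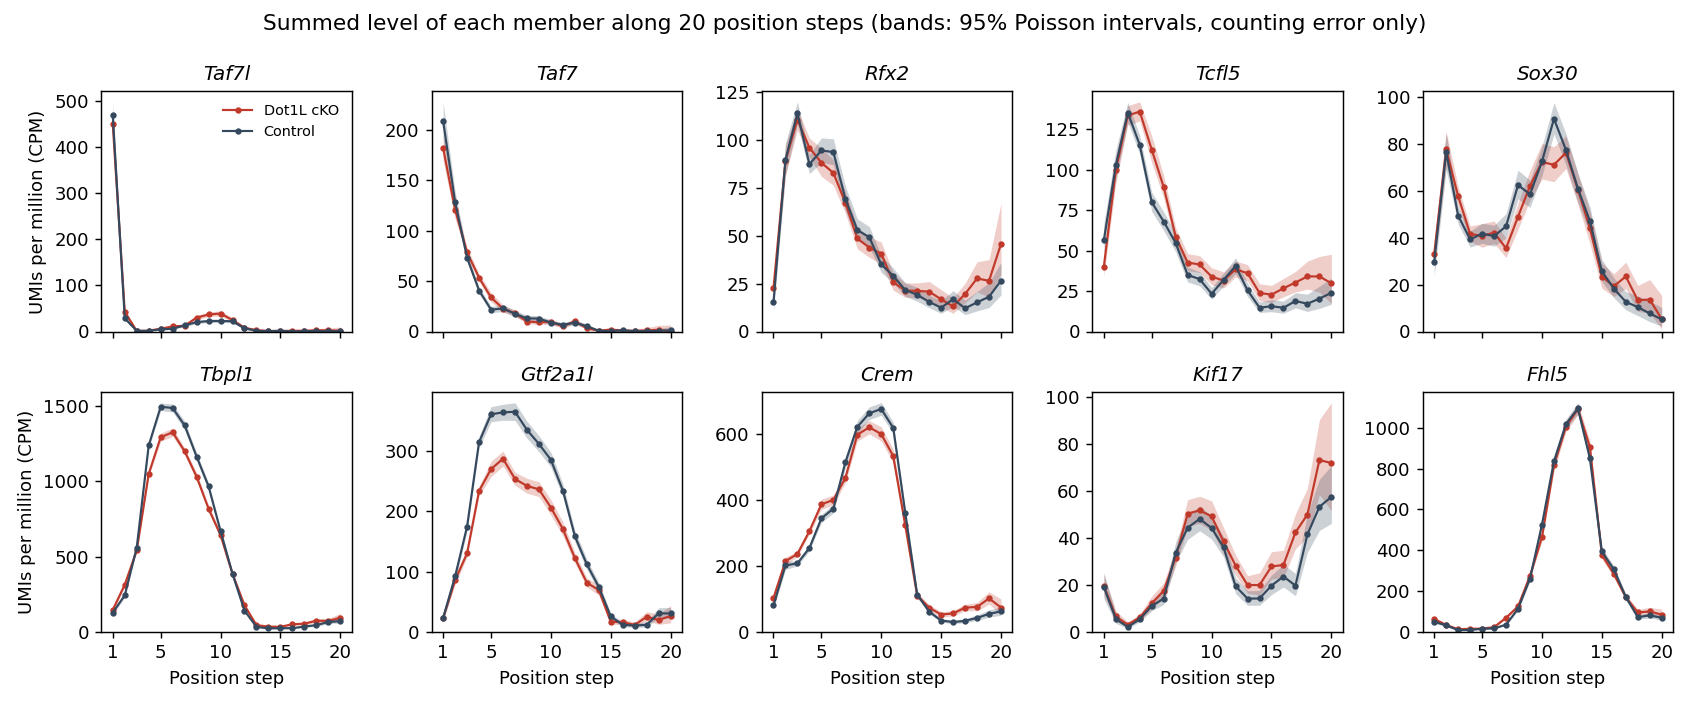
CPM of each member in 20 position steps, Dot1L cKO in red and control in blue, with 95% Poisson bands for counting error. Gtf2a1l and Tbpl1 lie lower in the cKO around their maxima, Crem slightly so, and the Fhl5 curves lie on each other with maxima of 1092 and 1096 CPM at step 13.

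Which other genes share these courses was asked by Pearson's r of log2(CPM + 10) over the 7 stages of the control library, among 9438 genes; with 7 points r is a description. Crem was most like Wdr54, Pam16, Synj2bp, Ppm1b and B9d1 (r from 0.970 to 0.979). Fhl5 was most like Cypt12 (0.997) and Spata25 (0.996), and Tbpl1 like Gkap1 (0.998) and Ccdc130 (0.997). The closest for Gtf2a1l were Exosc5 (0.995) and Gorasp2 (0.994), for Rfx2 Ptar1 (0.992) and Crnde (0.990) and for Tcfl5 Atp8b5 (0.991) and Zfp787 (0.988). Taf7l was nearest to Usp26 (0.997), also X-linked, and Trank1 (0.995), and Taf7 had an r of 0.998 with Prrc2c. Kif17 (Akap7 at 0.970, then Tln2 at 0.920) and Sox30 (Ppp2r3d at 0.951 and Tmem67 at 0.946) had the loosest matches, and in the cKO library both of these Sox30 pairs were at 0.824.

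At the stage where each member was highest, the genotypes were close. The log2 ratio of cKO over control there ran from -0.43 for Gtf2a1l to 0.13 for Kif17, with 5 members below and 5 above 0. Crem had -0.11 (95% interval -0.15 to -0.08) in early round spermatids, and Fhl5 0.04 (0.01 to 0.07) in late round spermatids. Tbpl1 had -0.21 (-0.23 to -0.19) in late pachytene to secondary cells. In the somatic cells Tbpl1 was lower too, with 264 CPM in the cKO and 396 CPM in the control library (-0.58, -0.83 to -0.33), on 534 and 186 UMIs. Of the 8 members measured in the somatic cells 4 were above and 4 below 0. The intervals of Rfx2, Tcfl5, Sox30, Taf7 and Taf7l at their highest stages held 0.

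Gtf2a1l was the member with the widest run of lower values in the cKO. It was lower by 22.7% at early to mid pachytene (log2 ratio -0.37, interval -0.43 to -0.32), by 25.8% in late pachytene to secondary cells (-0.43, -0.48 to -0.39), and by 17.2% in late round spermatids (-0.27, -0.37 to -0.17); early round spermatids were at -0.42 (-0.47 to -0.37). All 4 lie below the lower quartile of all genes in their stage, which was between -0.16 and -0.10, yet none passed the 1.5-fold used here as the rule of size. These 4 signs held under all 11 other settings tried. The same direction stood in cells that should not make the gene, with 65.3 CPM in cKO and 102 CPM in control somatic cells, on 132 and 48 UMIs. At early to mid pachytene, late pachytene to secondary and early round the free RNA estimate was at most 5.43% of the Gtf2a1l UMIs in either library, and with it subtracted the log2 ratio in late pachytene to secondary cells was -0.42. No gene overlaps Gtf2a1l in the annotation, and no stretch of 40 bases in the last 400 of its longest transcript occurs in another gene.

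**Figure D3:**
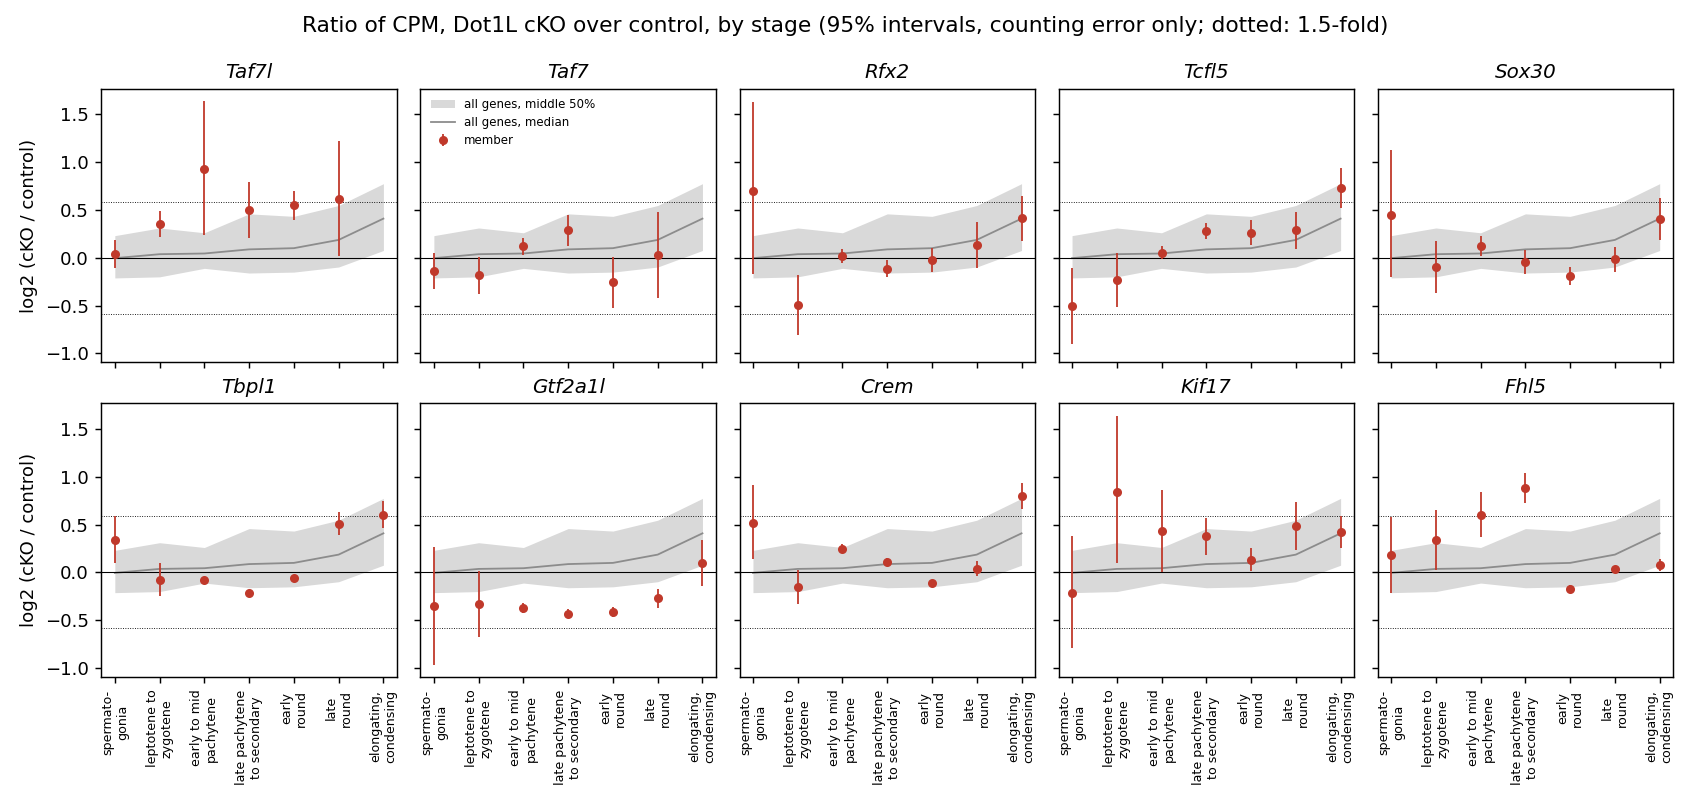
log2 ratio of CPM, Dot1L cKO over control, of each member in 7 stages, with 95% intervals for counting error; the grey band and line are the middle 50% and the median of all measured genes. Gtf2a1l lies below the grey band from early to mid pachytene to late round spermatids, and the median of all genes climbs to 0.41 in elongating and condensing spermatids.

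Counted by the rule of size, 9 of 68 member and stage pairs with at least 50 UMIs were past 1.5-fold, all 9 higher in the cKO. In spermatogonia it was 1 of 10 members, where 9.59% of all genes were higher and 4.57% lower by that fold, 14.2% in all. In leptotene to zygotene cells it was 1 of 10, with 11.3% of all genes higher, 5.87% lower and 17.2% in all. At early to mid pachytene it was 2 of 10, with 10.6% higher, 3.5% lower and 14.1% in all. In late pachytene to secondary cells it was 1 of 10, with 19.8% higher, 5.46% lower and 25.3% in all. In early round spermatids it was 0 of 10, with 18.1% higher, 6.54% lower and 24.6% in all, and in late round spermatids 1 of 10, with 23% higher, 6.51% lower and 29.5% in all. In elongating and condensing spermatids it was 3 of the 8 members measured, with 36.5% of all genes higher, 4.38% lower and 40.9% in all. With 8 to 10 members a stage, these counts are near the shares of all genes. None of the 9 was at the gene's highest stage. Their levels were between 0.285% and 31.5% of that highest stage, and in all 9 the free RNA estimate was 39.3% or more of the UMIs counted in each library.

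**Figure D4:**
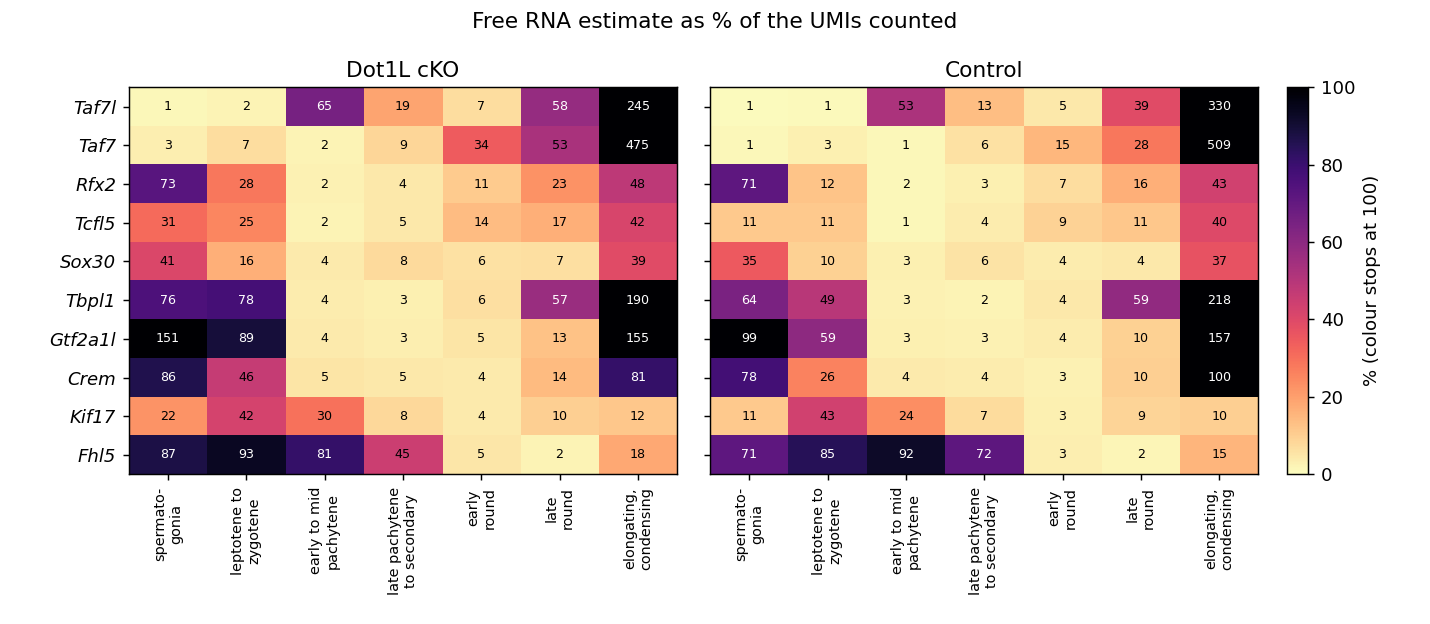
Estimated free RNA as a percentage of the UMIs counted, by member and stage, Dot1L cKO on the left and control on the right. Values over 100 mean that the estimate exceeded the count, as for Tbpl1 in elongating and condensing spermatids (190 and 218), while at each member's highest stage the estimate was 16.5% or less.

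Of the 9, Fhl5 before its onset had the most UMIs to rest on apart from the last stage. It had 35.0 CPM in cKO and 19.0 CPM in control late pachytene to secondary cells, a log2 ratio of 0.88 (0.72 to 1.04), with a free RNA estimate of 44.9% and 71.8% of those UMIs. That value was 0.33 when each cell was weighted equally, and 0.36 with at most 5% mitochondrial UMIs. Over the 11 other settings it ran from 0.33 to 1.87, the highest being with free RNA subtracted. Along the position steps of that stage the log2 ratio of Fhl5 was 0.05 at step 5, 0.44 at step 6 and 0.98 at step 7. Step 7 held 583 cKO and 232 control UMIs of Fhl5. Tnp1, Tnp2, Prm1 and Prm2 were also higher in the cKO at step 7 (0.92, 1.29, 0.67 and 1.31). The cause was not tested. At early to mid pachytene Fhl5 had 14.2 and 9.31 CPM (0.60, 0.37 to 0.84), which became -0.01 with doublets kept and 1.90 with free RNA subtracted. Taf7l had 59 and 27 UMIs at early to mid pachytene (0.92, 0.24 to 1.64) and 56 and 44 UMIs in late round spermatids (0.61, 0.02 to 1.21). Kif17 in leptotene to zygotene cells had 52 and 22 UMIs (0.84, 0.10 to 1.63), and Rfx2 in spermatogonia 40 and 16 UMIs (0.70, -0.17 to 1.63).

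The other 3 were in elongating and condensing spermatids: Crem with 64.9 CPM in the cKO and 37.5 CPM in the control library (0.79, 0.66 to 0.93), Tcfl5 with 27.9 and 16.8 CPM (0.73, 0.52 to 0.94) and Tbpl1 with 54.1 and 35.6 CPM (0.60, 0.46 to 0.75). All measured genes had a median of 0.41 there, and the 4 transition protein and protamine genes took 22.4% of cKO and 30.6% of control UMIs. Relative to that median the 3 genes stood at 0.39, 0.32 and 0.20, none past 1.5-fold, and with it set to 0 in every stage 4 of the 68 pairs were past 1.5-fold, all higher. The free RNA estimate was 81.5% of the Crem UMIs in the cKO and 100.2% in the control library, 190% and 218% of those of Tbpl1, and 41.6% and 40.1% of those of Tcfl5. For Gtf2a1l it was 155% and 157%. Free RNA cannot exceed the count, so the estimate was too high in this stage. It does not show what part of these UMIs was free RNA. Relative to the median Gtf2a1l was at -0.31 and Fhl5 at -0.33 in the same stage. In cKO spermatogonia the free RNA estimate was 151% of the Gtf2a1l UMIs (99.3% in the control library), so it was too high for that gene there too. The Rfx2 value in spermatogonia carries the same limit.

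Under 1.5-fold, Taf7l in its second window had a log2 ratio of 0.55 (0.39 to 0.70) in early round spermatids on 738 cKO and 663 control UMIs, with a free RNA estimate of 7.001% and 4.52%. All 11 other settings gave between 0.45 and 0.75. Tcfl5 after its maximum was higher at 0.28 (0.19 to 0.37) in late pachytene to secondary cells, 0.26 (0.13 to 0.39) in early round and 0.28 (0.09 to 0.47) in late round spermatids, against medians of all genes of 0.09, 0.10 and 0.19. Rfx2 in leptotene to zygotene cells was at -0.49 (-0.80 to -0.18) and Tcfl5 in spermatogonia at -0.51 (-0.90 to -0.11), before their maxima.

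The wider pathway was read from 5 lists of 61 genes, of which 58 were measured in at least 1 stage. In all, 92 of 360 gene and stage pairs were past 1.5-fold, 63 higher and 29 lower in the cKO, where by stage between 14.1% and 40.9% of all genes were past it. Among CREM cofactors and cAMP signalling genes, 5 of 13 were higher and 0 lower in early round spermatids (18.1% of all genes were higher), and 6 of 12 and 0 in late round spermatids (23% of all genes), with medians of 0.21 and 0.68 beside 0.10 and 0.19 for all genes. Ppp1cc, a phosphatase catalytic subunit, had 815 CPM in cKO and 104 CPM in control early round spermatids (log2 ratio 2.97, 2.91 to 3.02) and 422 and 48.5 CPM in late round ones (3.12). It was higher in the cKO in every earlier stage too. The log2 ratio was 1.31 in spermatogonia, 1.40 in leptotene to zygotene, 2.12 in early to mid pachytene and 2.57 in late pachytene to secondary cells. Its last 400 bases share 69.8% of their words of 40 bases with Ppp1ccb, and in the somatic cells it was at 356 and 111 CPM (1.69). Prkar2a, a regulatory subunit of cAMP-dependent kinase, had 208 and 88.5 CPM in late round spermatids (1.23, 1.14 to 1.33). Camk4, a kinase that can act on CREM, had 206 and 129 CPM in early round spermatids (0.68) but 119 and 118 CPM in late round ones (0.01). Atf1, a CREB family relative of CREM, had 91.8 and 49.1 CPM in late round spermatids (0.90). Creb1 (1.02 in early round) and Crebbp (0.92 in late round), a CREB member and a CREB-binding coactivator, rested on 178 and 115, and 158 and 100 UMIs.

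Genes reported as CREM targets had medians below 0 in every stage but late pachytene to secondary, where the median was above 0. The medians were -0.42 in spermatogonia, -0.42 in leptotene to zygotene and -0.43 in early to mid pachytene cells. For all genes these were -0.005, 0.04 and 0.04. In the somatic cells the median of the list was -0.40, beside 0.03 for all genes. In late pachytene to secondary cells 3 of 10 were higher and 0 lower (19.8% and 5.46% of all genes). The median was 0.22 beside 0.09 for all genes, and the 3 were Tnp2 (0.65), Prm2 (0.59) and Gpd2 (0.69). Tnp2 and Prm2 were not higher throughout that stage. Their log2 ratios were -0.30 and -0.58 at step 5, and -0.32 and -0.67 at step 6. At step 7, with 84.9% of its cells in that stage, they were 1.29 and 1.31. Tnp1 and Prm1 turned in the same way, from -0.75 and -0.98 at step 6 to 0.92 and 0.67 at step 7. In early round spermatids 0 of 10 were higher and 1 lower (6.54% of all genes were lower), and in late round spermatids 0 and 2 (6.51%), with medians of -0.31 and -0.12 beside 0.10 and 0.19 for all genes. Prm1, the main early protamine, had 40184 CPM in cKO and 69230 CPM in control late round spermatids (-0.78, -0.79 to -0.78), and Tnp1, a transition protein, 15651 and 25381 CPM (-0.70). In the same cells Tnp2 was at -0.33, Prm2 at -0.24, Gapdhs at -0.16, Ace at -0.08, Odf1 at -0.07, Smcp at -0.01, Ldhc at 0.14 and Gpd2 at 0.24. Prm1 was at -0.78 and Tnp1 at -0.48 in the somatic cells as well, which do not make them. Crem and Fhl5 in late round spermatids, at 0.04 each, were nearly equal in the 2 libraries. Relative to the median of all genes in that stage, both stood at -0.15. Over the 11 other settings Crem ran from -0.15 to 0.26 there and Fhl5 from -0.15 to 0.08.

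Of the TFIIA, TFIID and TBP family, 0 of 17 were higher and 2 lower in early round spermatids, and 5 of 14 higher and 3 lower in late round ones, with medians of 0.01 and 0.18. Of all genes 18.1% were higher and 6.54% lower in early round spermatids, and 23% and 6.51% in late round ones. Taf9b, a TFIID subunit, had 13.7 CPM in cKO and 31.7 CPM in control early round spermatids (-1.21, -1.40 to -1.03). For Taf9 (-1.61 on 64 and 257 UMIs) 99.7% of the words in the last 400 bases occur in other genes, Ak6 among them, so that count is uncertain. In late round spermatids Gtf2b, another general factor, was lower (-0.67), and the TFIID subunits Taf10 (0.75) and Taf11 (1.15) were higher. Of the RFX family 0 of 5 were past 1.5-fold in early round spermatids and 1 of 4 in late round ones, beside 24.6% and 29.5% of all genes. Of the other germ cell regulators 1 of 9 was higher and 2 lower in early round spermatids, and 2 of 8 and 0 in late round ones. Among them Papolb, a testis poly(A) polymerase, was at 306 and 152 CPM in early round and at 217 and 82.6 CPM in late round spermatids (1.39). Zfy1, a Y-linked zinc finger gene, was lower in early round spermatids (-1.87 on 68 and 327 UMIs), as was Bcorl1, a corepressor on the X chromosome (-1.66 on 42 and 174 UMIs), and Rfxank was higher in late round ones (0.76 on 72 and 51 UMIs). The part of free RNA in the values of these lists was not tested.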

How the data were processed

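Whole dissociated testis of 1 Dot1L cKO and 1 control library was profiled with the Chromium 3′ v3.1 kit, per the labels. The values deposited by the authors are unnormalized UMI counts for each gene and barcode. The file headers name Cell Ranger 7.0.0, and mm10 and Seurat 4.1.0 are listed per the submitters' processing notes. The annotation and promoters came from GENCODE vM21 and RefSeq (GRCm38.p6), and 32235 of 32285 gene identifiers were found in the former.

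A cell needed at least 3000 UMIs and 300 detected genes, with no more than 10% of UMIs from mitochondrial genes. The doublet caller's automatic threshold marked 0% of cells and was replaced by the median score of simulated doublets, which removed 12.5% of cKO and 10.3% of control cells and caught 48.9% and 49.2% of simulated doublets. Filters left out 10235 cKO and 8138 control cells under 3000 UMIs. Each cell took the germ stage of the best marker score, with markers highest in another stage left out. A cell with a best score under 0.5 SD, or under 0.5 SD above the best non-adjacent stage, took none (3.53% of cKO and 2.63% of control cells). These cuts were set after the cells were seen. UMIs were summed per stage and library and given as CPM with exact Poisson intervals; ratios have exact conditional binomial intervals. Shares have exact Clopper-Pearson intervals. The 20 position steps come from the weighted mean of stage scores. Free RNA was the median spermatid marker count of somatic cells over that marker share of the library. No test was possible with 1 library per genotype. The intervals and the signs of the ratios were tested on simulated sums that held counting error only. That tests neither the summing of cells nor the spread between cells or libraries. Named genes were all 10 members, the list genes past 1.5-fold in round spermatids with 100 or more UMIs, all reported CREM targets and the most similar genes. The members and lists were chosen with earlier results of these data known. Python 3.11.15, numpy 2.4.6, scipy 1.17.1, pandas 2.3.3, scanpy 1.11.5, leidenalg 0.10.2 and matplotlib 3.10.9 were used. A gene with a course close to that of Taf7 is not reported here.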

Additional observations from a re-analysis of the deposited data

How the results depend on the processing

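The count of 9 member and stage pairs past 1.5-fold became 4 with scaling to the median of ratios, 5 without the 50 most abundant genes, 5 with a minimum of 200 UMIs and 0 at 2-fold. It was between 6 and 13 under the other settings. With free RNA subtracted, where estimates above the count gave no value, it was 13 of 64 pairs, 6 higher and 7 lower in the cKO, of which 5 were among the 9. The log2 ratio of Fhl5 at early to mid pachytene was -0.00985 with doublets kept and 1.90 with free RNA subtracted, against 0.60. The cause was not tested. Members on before the round stages numbered 7 to 9 in the cKO and 7 to 9 in the control library under every setting. The list count of 92 was between 67 and 93. No paired analysis was possible because each genotype has 1 library. For the same reason no replicate could be left out, and Taf7l and Taf7, under 50 UMIs in elongating and condensing spermatids, were not counted there. The 20 steps, the matched mix of steps and the totals without transition protein and protamine genes were chosen after seeing the data.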
